A study of Mus musculus with 8 samples.

Results

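Macrophages take up, digest, store and release lipid, and 10 genes of this work were followed here: Apoe, Lpl, Cd36, Fabp4, Fabp5, Lipa, Abca1, Abcg1, Plin2 and Trem2. They were chosen by symbol, as 10 of the 52636 gene IDs in the abundance tables, and 9 of them reached the level needed for testing. RNA was sequenced from whole mixtures of spleen cells and colon cancer cells after 5 days of shared culture, at 1 cancer cell to 50 splenocytes. Both groups had 4 libraries, and both used splenocytes of C57BL/6 background from mice with an Actin-GFP reporter. Both also used liver metastases of tdTomato-carrying colon cancer organoids that had been injected into the spleen. The groups differed in the cancer cells, which had been sorted by their tdTomato and CD4 protein into trogocytic cells and, for the control, non-trogocytic cells. In trogocytosis a cell takes pieces of membrane from a cell it touches, and CD4 is a protein of helper T cells. No source used here gives the age or sex of the mice, the mutations of the organoids or the origin of each replicate. The p-values below therefore rest on the scatter among the deposited libraries, and part or all of that scatter may be technical.

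As background, lipoprotein lipase cuts triglyceride outside the cell, CD36 takes up the freed fatty acids and oxidised lipoproteins, and the FABP proteins carry fatty acids through the cytosol. Lysosomal acid lipase frees cholesterol from ingested particles, perilipin 2 coats the droplets that hold the excess, and ABCA1 and ABCG1 export cholesterol to acceptors such as apolipoprotein E. TREM2 is a surface receptor that binds lipids and signals through the adaptor encoded by Tyrobp. Many of these genes are also read in adipocytes, endothelium, hepatocytes or epithelium, so they do not by themselves mark macrophages. In a bulk mixture, fewer macrophages and less RNA per macrophage cannot be told apart.

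Between 1.39 and 1.84 Gb were aligned per library, so that 5.83 to 8.45 read pairs lay behind 1 TPM, a transcript abundance scaled for length and depth, of a transcript of 2 kb, and 6 of 11433 tested genes, or 0.0525%, were called different between the groups (0.035% lower and 0.0175% higher in the trogocytic group). On the first principal component, with 23.3% of the variance, replicate 1 of both groups lay at one end, at -65.6 and -57.3, against -19.0 or more for the others. The label of the genes was checked against 12 macrophage markers. All 12 were detected, led by the lysozyme gene Lyz2 (1175 to 12060 TPM) and the endosomal glycoprotein gene Cd68 (311.8 to 2039 TPM), but the growth factor receptor gene Csf1r reached at most 4.88 TPM and Adgre1, which encodes F4/80, was listed at 0 in trogocytic replicate 3. These 2 markers were named after their values were seen. All 5 adipocyte markers (Adipoq, Plin1, Cidec, Lep and Retn) were listed at 0 in all 8 libraries, as were 3 of 6 endothelial markers (Kdr, Emcn and Cldn5). The other endothelial markers were detected at low levels, with highest values of 8.15 TPM for Pecam1, 1.96 TPM for Cdh5 and 0.369 TPM for Tek. The 6 hepatocyte markers were listed at 0 in 7 libraries and summed to 354 TPM in non-trogocytic replicate 3, where Apoa2 stood at 210.6 and Apoa1 at 55.96 TPM. Without that library, 8 of the 9 tested lipid handling genes had a fold change below 0, with a median of -0.57 on the log2 scale, and 0 were called. Epithelial markers were abundant throughout, at a sum of 2850 to 7830 TPM in the non-trogocytic and 4630 to 5880 TPM in the trogocytic group.

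None of the 9 tested genes was called between the groups, and in none of the 10 did the 4 trogocytic libraries stand clear of the 4 non-trogocytic ones. Of all genes tested, 2.68% had groups that did not overlap, and 1.3% did so with the trogocytic group lower. Below 0 lay the fold changes of 8 of the 9, all but Fabp4, against 49.3% of all genes tested, with a median log2 fold change of -0.57 against 0.00705 over all genes. These 8 are not separate observations. Over their 28 pairs, Pearson's r of log2(TPM + 1) across the libraries ran from 0.256 to 0.97, with a median of 0.841. Fold changes compare the trogocytic with the control group on the scale log2(TPM + 1), which understates the change of low genes. Each of the 9 had an adjusted p of 0.9998 in limma's test over all genes. The differences between libraries of the same group were as large as those between the groups: TPM summed over the 10 genes ran from 1655 to 7071 in the non-trogocytic and from 1359 to 4007 in the trogocytic libraries.

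**Figure D1:**
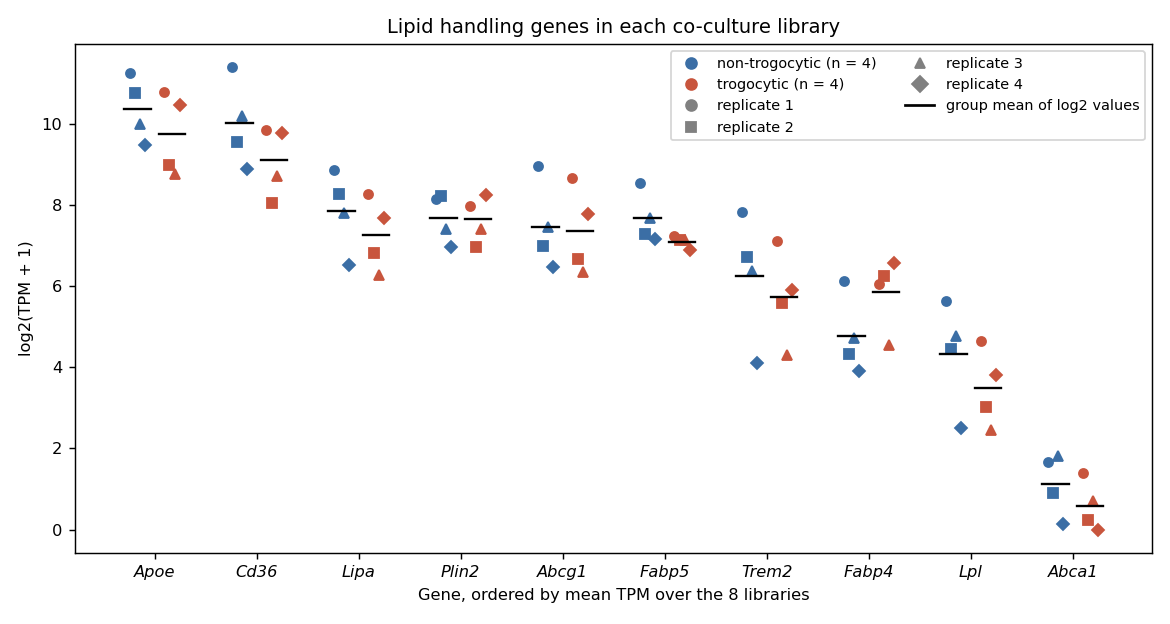
Level of each lipid handling gene as log2(TPM + 1) (vertical axis) in the 4 non-trogocytic (blue) and 4 trogocytic (red) libraries, with symbols for the replicate number and bars for the group means of the log2 values. Genes are ordered by mean TPM, from Apoe to Abca1, and the points of the groups overlap for every gene.

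Apoe was first in level in 6 of the 8 libraries and Cd36 in the other 2, and no other gene of the list exceeded 497.3 TPM, the highest value of Abcg1, in any library. Apoe (ENSMUSG00000002985.16, GRCm38 chromosome 7, 19696109 to 19699188), which encodes the lipid-carrying apolipoprotein E, stood at 2424, 1730, 1012 and 705.9 TPM in replicates 1 to 4 of the control group. In trogocytic replicates 1 to 4 it stood at 1750, 507.3, 429.1 and 1403 TPM. Both lowest values were trogocytic, but trogocytic replicate 1 lay above 3 of the controls and trogocytic replicate 4 above 2. The log2 fold change was -0.62 ± 0.50 (SE, n = 4 per group; limma adjusted p = 0.9998), with a 95% interval from -1.73 to 0.49. Leaving out 1 library moved it from -0.96 (trogocytic replicate 1) to -0.29 (trogocytic replicate 3), and to -0.33 and -0.37 for replicate 1 of the controls and trogocytic replicate 2. Hepatocytes also make apolipoprotein E, and the library with hepatocyte transcripts, non-trogocytic replicate 3, lay below 2 of the other controls in Apoe. The part of hepatocyte RNA in that value was not tested.

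Of the genes for uptake, Cd36 and Lpl differed in level by a wide margin and varied in a similar range. Cd36 (ENSMUSG00000002944.15, chromosome 5, 17781690 to 17888801), the scavenger and fatty acid receptor, stood at 2689, 753.4, 1176 and 469.3 TPM in the non-trogocytic libraries. The trogocytic libraries gave 916.0, 264.7, 419.7 and 876.3 TPM. The highest value, that of non-trogocytic replicate 1, was 10.2 times the lowest, and the group means were 1270 ± 988 and 619 ± 326 TPM (SD, n = 4 each). The log2 fold change was -0.91 ± 0.53 (SE), with an interval from -2.09 to 0.27. Dropping replicate 1 of the controls gave -0.45, dropping trogocytic replicate 2 gave -0.56, and the value lay between -1.29 and -0.78 without any other single library.

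Lpl (ENSMUSG00000015568.16, chromosome 8, 68880491 to 68907448), the secreted lipase that frees fatty acids from lipoproteins, stood at 48.2, 20.9, 26.2 and 4.70 TPM in the controls. It stood at 24.1, 7.08, 4.49 and 13.1 TPM in trogocytic libraries. Non-trogocytic replicate 4 was as low as trogocytic replicate 3, and the log2 fold change was -0.85 ± 0.69 (SE), with an interval from -2.37 to 0.66. That value became -0.43 without non-trogocytic replicate 1, -0.51 without trogocytic replicate 3 and -1.46 without non-trogocytic replicate 4. TPM of Cd36 was 36.1 to 99.8 times that of Lpl. Of 7 genes that control or resemble lipoprotein lipase, 2 were tested and 0 called. Angptl4, a secreted inhibitor of the lipase, stood at 1.01 ± 1.17 and 2.06 ± 2.46 TPM (SD, n = 4 each). Gpihbp1, which anchors the lipase on capillary endothelium, was listed at 0 in all 8 libraries.

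The other receptors for lipid uptake were lower than Cd36. Of 10, 6 were tested, 5 with a fold change below 0, and 0 were called. Cxcl16, a chemokine that also binds oxidised lipoprotein, stood at 93.8 ± 44.3 and 83.6 ± 16.7 TPM (SD, n = 4 each). Msr1, the class A scavenger receptor, stood at 47.8 ± 18.4 and 29.8 ± 13.5 TPM, and Scarb1, a receptor for high-density lipoprotein, at 1.40 ± 0.706 and 0.908 ± 0.601 TPM.

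The neighbouring fatty acid carriers Fabp4 and Fabp5 went opposite ways in these libraries, though neither passed the test. Fabp4 (ENSMUSG00000062515.3, chromosome 3, 10204088 to 10208576), the carrier of adipocytes and macrophages, was the only gene of the list with a fold change above 0. It stood at 68.6, 19.1, 25.4 and 14.0 TPM in the non-trogocytic and at 65.8, 75.5, 22.5 and 93.6 TPM in the trogocytic libraries. Non-trogocytic replicate 1 was as high as trogocytic replicate 1, and trogocytic replicate 3 was as low as the other controls. The log2 fold change was 1.09 ± 0.54 (SE; limma adjusted p = 0.9998), with an interval from -0.11 to 2.29. Single libraries moved it from 0.80 (without non-trogocytic replicate 4) to 1.54 (without non-trogocytic replicate 1), and it was 1.52 without trogocytic replicate 3.

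Fabp5 (ENSMUSG00000027533.10, chromosome 3, 10012548 to 10016607), the epidermal-type carrier found in macrophages and in many epithelia, stood at 370.7, 156.0, 204.0 and 142.1 TPM in the controls. The trogocytic libraries lay close together, at 149.0, 139.5, 138.8 and 118.3 TPM. Only trogocytic replicate 1 exceeded the lowest control, and the log2 fold change was -0.57 ± 0.28 (SE), with an interval from -1.20 to 0.06. Without non-trogocytic replicate 1, the highest library, it was -0.28, and without any other single library it lay between -0.74 and -0.50. Fabp4 and Fabp5 share no stretch of 100 bases, the length of a read, in GENCODE M21 transcripts, and 2.19% of such stretches of Fabp5 also occur in 2 other genes, Gm6166 and Gm14328, which stood at means of 0.364 and 0.144 TPM.

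Ratios within a library set the genes of the list against one another. The ratio of Fabp4 to Cd36 in TPM stood at 0.0255, 0.0254, 0.0216 and 0.0299 in the non-trogocytic libraries. It stood at 0.0718, 0.285, 0.0536 and 0.107 in the trogocytic ones, so that the groups did not overlap. Fabp5 to Fabp4 stood at 5.41 to 10.1 in the controls and at 1.26 to 6.18 in the trogocytic libraries, where replicate 3 lay within the control range. Over all 36 pairs of tested genes, 5 ratios did not overlap between the groups, and 4 of these held Fabp4, with Apoe, Cd36, Lipa or Abcg1. The fifth was Cd36 with Abcg1. Over every pair of the 9789 tested genes above 0 in all libraries, 2.66% of ratios did not overlap, and of the ratios of Fabp4 to each of the other genes 3.89% did not. These pairs share genes and were examined after the values had been seen, so the counts are a description with no test.

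**Figure D2:**
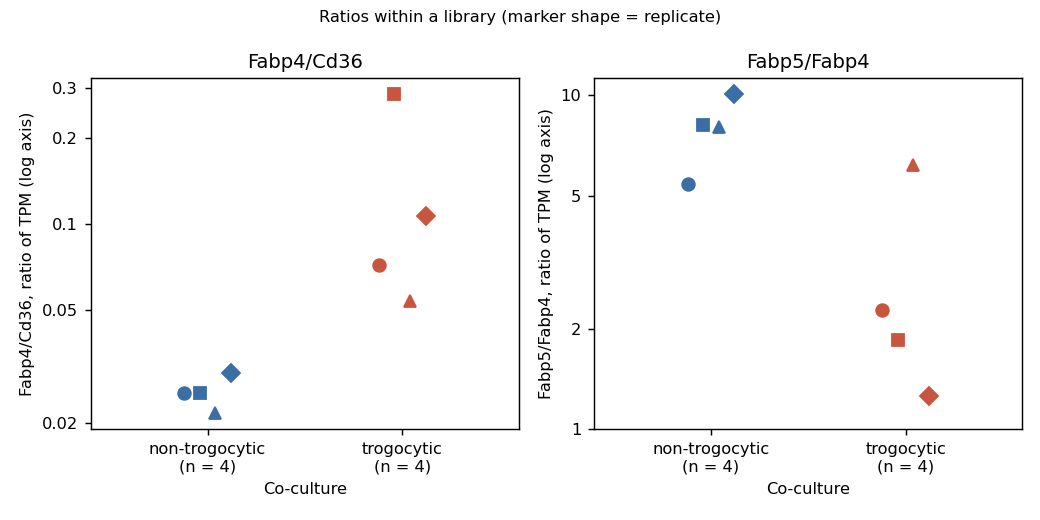
Ratio of TPM within each library for Fabp4 to Cd36 (left) and Fabp5 to Fabp4 (right) on log axes, with 1 point per library and symbols for the replicate number. All 4 trogocytic libraries have a Fabp4 to Cd36 ratio of 0.0536 or more and all 4 controls one of 0.0299 or less, while Fabp5 to Fabp4 overlaps through trogocytic replicate 3.

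Other carriers and activators of fatty acids were measured in a list of 12 genes, of which 7 were tested, 6 with a fold change below 0, and 0 were called. Fabp7, the brain-type carrier, went from 36.7 ± 20.6 to 13.8 ± 7.23 TPM (SD, n = 4 each; log2 fold change -1.30 ± 0.54 SE, limma adjusted p = 0.9998). Acsl4, an acyl-CoA synthetase gene, had means of 63.6 ± 7.66 and 64.5 ± 20.7 TPM. Those of Acsl5, of the same family, were 82.7 ± 50.5 and 81.0 ± 17.5 TPM. Fabp1, the liver and gut carrier, was listed at 0 except for 70.3 TPM in non-trogocytic replicate 3, the library with hepatocyte markers. It was named after its values were seen.

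Lipa (ENSMUSG00000024781.15, chromosome 19, 34492318 to 34527474), which encodes lysosomal acid lipase, stood at 462.7, 306.2, 221.0 and 90.9 TPM in the controls. Its trogocytic values were 308.0, 111.7, 76.6 and 204.0 TPM. The order of the libraries was close to that of Apoe, with both first replicates high. The log2 fold change was -0.60 ± 0.52 (SE), with an interval from -1.76 to 0.56. Single libraries moved it to -0.27 (without non-trogocytic replicate 1, and likewise without trogocytic replicate 3), -0.93 (without trogocytic replicate 1) and -1.04 (without non-trogocytic replicate 4). In a list of 9 further genes of lysosomal lipid processing, 8 were tested and all 8 had a fold change below 0, with a median of -0.25 and 0 called. Npc2, which moves cholesterol out of the lysosome, stood at 260 ± 127 and 171 ± 64.2 TPM (SD, n = 4 each). Asah1, an acid ceramidase, stood at 315 ± 55.3 and 273 ± 49.8 TPM, and Psap, the precursor of sphingolipid activator proteins, at 234 ± 204 and 96.2 ± 64.7 TPM.

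Plin2 (ENSMUSG00000028494.12, chromosome 4, 86648386 to 86670060), the droplet coat protein, varied least among the 9 tested genes. It stood at 282.4, 296.7, 169.7 and 123.9 TPM in the controls and at 248.5, 124.4, 167.8 and 302.6 TPM in the trogocytic libraries. The highest value was 2.44 times the lowest, and the groups covered the same range. The log2 fold change was -0.04 ± 0.35 (SE), with an interval from -0.81 to 0.72. Leaving out 1 library at a time moved it from -0.28 to 0.18, above 0 without replicate 1 or 2 of the controls (0.11 and 0.14) or trogocytic replicate 2 or 3 (0.18 and 0.04). Among 16 genes of droplet storage and lipolysis, 9 were tested, 7 had a fold change below 0 and 0 were called. Soat1, which esterifies cholesterol for storage, stood at 138 ± 33.6 and 95.6 ± 22.9 TPM (SD, n = 4 each). Hilpda, an inhibitor of the main droplet lipase, stood at 106 ± 18.8 and 75.2 ± 15.3 TPM. The adipocyte droplet genes Plin1, Plin4 and Cidec were listed at 0 in all 8 libraries.

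The cholesterol exporters were unequal in level in the mixtures. Abcg1 (ENSMUSG00000024030.6, chromosome 17, 31057698 to 31115777) stood at 497.3, 126.3, 173.2 and 87.5 TPM in the non-trogocytic and at 407.1, 101.3, 80.9 and 216.6 TPM in the trogocytic libraries. Replicate 1 was highest in both groups, and the log2 fold change was -0.10 ± 0.59 (SE), with an interval from -1.40 to 1.20. Its sign turned with single libraries, to 0.40 without non-trogocytic replicate 1, 0.13 without trogocytic replicate 2 and 0.24 without trogocytic replicate 3. In mean level Lipa, Plin2, Abcg1 and Fabp5 came after Apoe and Cd36, and these 4 changed places between libraries: Lipa exceeded Plin2 in 4, Plin2 exceeded Abcg1 in 5 and Abcg1 exceeded Fabp5 in 3 of 8.

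Abca1 (ENSMUSG00000015243.4, chromosome 4, 53030787 to 53159895) was last in every library. It stood at 2.17, 0.868, 2.53 and 0.0997 TPM in the controls, at 1.61, 0.173 and 0.639 TPM in trogocytic replicates 1 to 3 and was listed at 0 in trogocytic replicate 4. At 1 TPM or more in 3 libraries only, it did not reach the filter. With no filter its log2 fold change was -0.55 ± 0.48 (SE; limma adjusted p = 0.8368 over 22213 genes). Abcg1 stood 68.5 to 878 times higher in TPM in the 7 libraries where Abca1 was above 0. The transcript of Abca1 is long, 10262 bases, so that 1 TPM of it stands for 29.9 to 43.4 read pairs if all come from that transcript. The liver X receptors, which sense oxidised cholesterol, switch on both exporters. The promoter of Abca1 is shown because it holds letters like their binding element, a display chosen after the matches were seen. The sequence is RefSeq's for GRCm38.p6, minus strand, 250 bases up to the start, 5′ to 3′, with the match in capitals.
Abca1, chr4:53159896-53160145: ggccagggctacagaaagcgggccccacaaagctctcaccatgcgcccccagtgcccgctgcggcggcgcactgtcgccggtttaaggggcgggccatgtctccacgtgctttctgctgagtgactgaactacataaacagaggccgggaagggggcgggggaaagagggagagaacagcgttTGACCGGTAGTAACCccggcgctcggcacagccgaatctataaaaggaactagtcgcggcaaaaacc
The capitals match a loose form of the liver X receptor direct repeat, GGTNA and GGTCA with 5 free bases between them, on the opposite strand, 67 to 53 bases before the start. This motif, searched on both strands, occurs in the same window of 0.177% of 32851 promoters and contains every match of the strict form, AGGTCA repeated after 4 free bases, which occurs in 0.0152% and in no promoter of the 10 genes. A match is a description of letters and not of binding.

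Other genes of cholesterol efflux and lipid sensing were low. Of 10 efflux genes and apolipoproteins, 2 were tested and 0 called: Apoc1 stood at 17.5 ± 12.2 and 14.2 ± 12.4 TPM (SD, n = 4 each) and Apoc2 at 8.01 to 35.3 and 9.73 to 18.4 TPM. Both are small apolipoproteins encoded beside Apoe. Of 9 nuclear receptors and partners, 5 were tested, 4 with a fold change above 0, and 0 were called. Pparg, the fatty acid sensor of adipocytes, macrophages and colon epithelium, stood at 18.0 ± 5.11 and 24.3 ± 4.14 TPM. Nr1h2, a liver X receptor, stood at 4.43 ± 3.68 and 1.34 ± 0.132 TPM, and Mylip, a target of these receptors that degrades the LDL receptor, at 8.13 ± 7.13 and 7.96 ± 4.67 TPM.

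Trem2 (ENSMUSG00000023992.14, chromosome 17, 48346401 to 48354147) had the widest range of the 9 tested genes, 13.9-fold. It stood at 225.9, 103.3, 82.3 and 16.2 TPM in the non-trogocytic and at 137.5, 47.0, 18.9 and 58.9 TPM in the trogocytic libraries. The lowest and the highest value were both in controls. The log2 fold change was -0.53 ± 0.76 (SE), with an interval from -2.20 to 1.15, and it was -0.0014 without non-trogocytic replicate 1, -0.053 without trogocytic replicate 3, -0.99 without trogocytic replicate 1 and -1.24 without non-trogocytic replicate 4. Its adaptor Tyrobp followed a similar order, at 594.7, 319.4, 281.8 and 150.6 TPM in the controls and at 280.2, 137.3, 82.5 and 245.5 TPM in the trogocytic libraries (log2 fold change -0.84 ± 0.45 SE, limma adjusted p = 0.9998). Of 6 genes of TREM2 signalling, 3 were tested and 0 called. Hcst, a second adaptor, stood at 52.2 ± 44.8 and 65.3 ± 51.4 TPM (SD) and Plcg2, a phospholipase of the pathway, at 2.39 ± 1.10 and 0.623 ± 1.07 TPM.

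Over the pooled libraries of both groups, 4 of the 10 genes followed the macrophage markers by Pearson's r and 5 by rank (adjusted p below 0.05). The same correlation was not run over all genes tested, so these counts have no share over all genes beside them and are not set apart from it. The mean log2(TPM + 1) of the 12 markers stood at 5.66, 5.18, 4.96 and 4.63 in the non-trogocytic and at 4.98, 3.47, 3.29 and 4.55 in the trogocytic libraries. Summed TPM of the markers ran from 3330 to 14400 and from 1640 to 5200, and all 11 tested markers had a fold change below 0, with 0 called and 4 at an unadjusted p below 0.05, against 4.59% of all genes. T cell markers went the other way, with all 8 above 0 and 0 called, at sums of 94.4 to 881 and 362 to 1370 TPM. No correlation of the 10 lipid handling genes with markers of other cell types was computed. Whether they follow those markers as closely was not tested, so a tie particular to macrophages is not shown. Their mean log2(TPM + 1) was highest in replicate 1 of both groups, at 7.84 (non-trogocytic) and 7.20 (trogocytic). So was that of the B cell markers, at 3.74 and 3.80, and of the neutrophil markers, at 4.52 and 4.39. Of the 10 genes, Apoe was tied most closely to the macrophage marker mean by Pearson's correlation (n = 8 libraries; r = 0.918, exact permutation p = 0.000918, adjusted over 10 relations 0.00918; Spearman's rho = 0.905, exact permutation p = 0.00456, adjusted 0.0228). Without trogocytic replicates 2 and 3, the libraries farthest from the median marker level, r was 0.749. Lipa gave r = 0.867 (exact permutation p = 0.00365, adjusted 0.017) and rho = 0.905 (exact permutation p = 0.00456, adjusted 0.0228), and r = 0.820 without those libraries.

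Cd36 and Lpl followed the markers as well. For Cd36, r was 0.858 (exact permutation p = 0.00511, adjusted 0.017) and rho 0.762 (exact permutation p = 0.0368, adjusted 0.0613), with r = 0.802 without the 2 libraries. For Lpl, r was 0.841 (exact permutation p = 0.00697, adjusted 0.0174) and rho 0.833 (exact permutation p = 0.0154, adjusted 0.0308), with r = 0.830. The adjusted p of r missed 0.05 for Trem2 (r = 0.741, exact permutation p = 0.0358, adjusted 0.0716), Abcg1 (r = 0.714, exact permutation p = 0.0461, adjusted 0.0768), Fabp5 (r = 0.625, exact permutation p = 0.0831, adjusted 0.119), Plin2 (r = 0.621, exact permutation p = 0.114, adjusted 0.143) and Abca1 (r = 0.576, exact permutation p = 0.143, adjusted 0.159). By rank, Trem2 (rho = 0.833, exact permutation p = 0.0154, adjusted 0.0308) and Fabp5 (rho = 0.857, exact permutation p = 0.0107, adjusted 0.0308) passed. For Fabp4 no relation was detected, with r = 0.0309 (exact permutation p = 0.934, adjusted 0.934) and rho = -0.119 (exact permutation p = 0.793, adjusted 0.793). No correlation is given within a group, since 4 libraries are too few for one. In both groups the order of the 4 libraries by Apoe was that by the marker mean. By Fabp4, replicate 1 was highest and replicate 4 lowest of the controls, as by the marker mean, and trogocytic replicate 3 was lowest by both, while trogocytic replicate 4 was highest in Fabp4 and replicate 1 in the markers. The pooled value for Fabp4 therefore holds the difference between the groups as well as the order within them. That is also so for the pooled r, rho and permutation p of every other gene of the list, since libraries were exchanged across the groups.

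**Figure D3:**
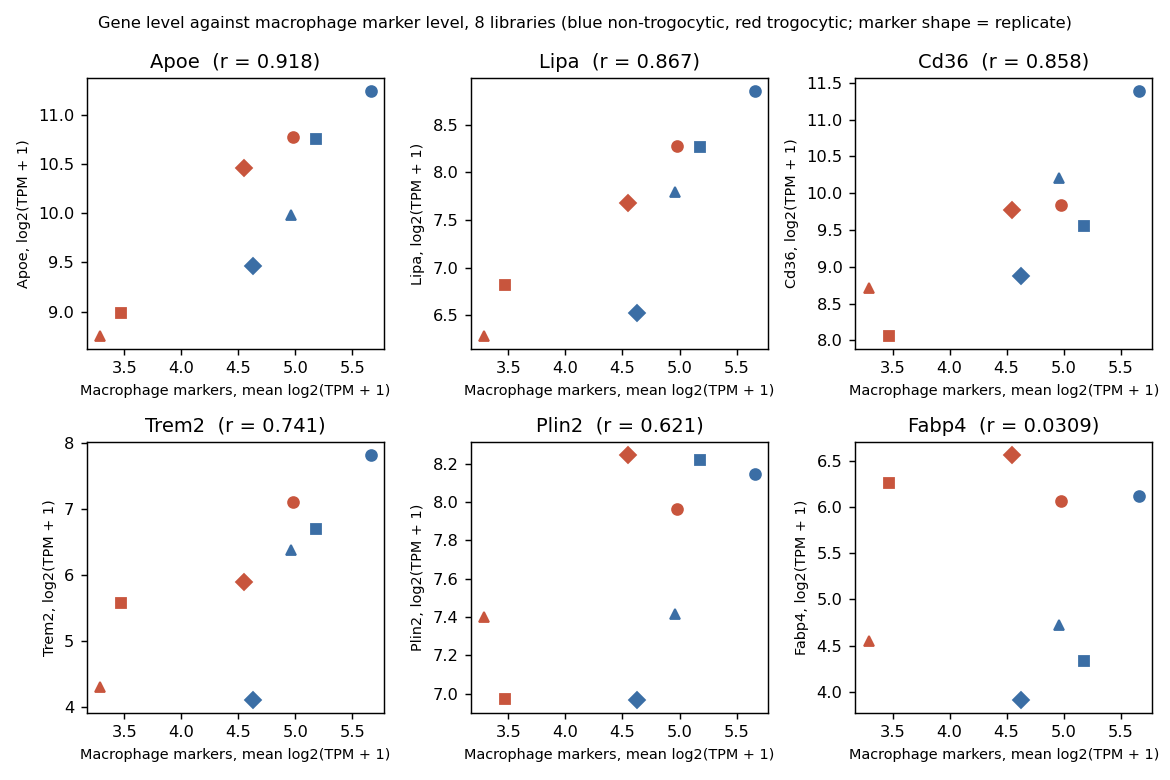
Level of 6 lipid handling genes (vertical axes, log2(TPM + 1)) against the mean log2(TPM + 1) of 12 macrophage markers (horizontal axes) in the 8 libraries, blue for non-trogocytic and red for trogocytic, with symbols for the replicate number. Apoe, Lipa and Cd36 rise along the marker axis (r = 0.918, 0.867 and 0.858), and Fabp4 does not (r = 0.0309).

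With the marker mean as a covariate in the limma fit, 8 of the 9 fold changes lay above 0, and again none was called. The share of all genes above 0 was not computed for this fit, so the 8 are not set apart from it. Genes at an unadjusted limma p below 0.05 numbered 1124, against 525 without the covariate. The covariate itself ran from 4.63 to 5.66 in the controls and from 3.29 to 4.98 in the trogocytic libraries, so its effect and that of the group cannot be fully told apart. Apoe then stood at a log2 fold change of 0.78 ± 0.20 (SE; adjusted p = 0.2193 in limma) and Abcg1 one of 1.44 ± 0.37 (0.2193). Fabp4 went to 2.06 ± 0.60 (limma adjusted p = 0.2788), Trem2 to 1.25 ± 0.64, Lipa to 0.75 ± 0.34, Plin2 to 0.70 ± 0.32, Lpl to 0.68 ± 0.62 and Cd36 to 0.35 ± 0.43. Fabp5 alone stayed below 0, at -0.30 ± 0.37. With Ptprc, the gene of the leukocyte antigen CD45, in place of the macrophage markers, the fold changes moved the other way, to -1.31 ± 0.25 for Cd36 (limma adjusted p = 0.1835) and -0.75 ± 0.18 for Fabp5 (0.3658). How much macrophage content contributed to the uncorrected differences was not tested.

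**Figure D4:**
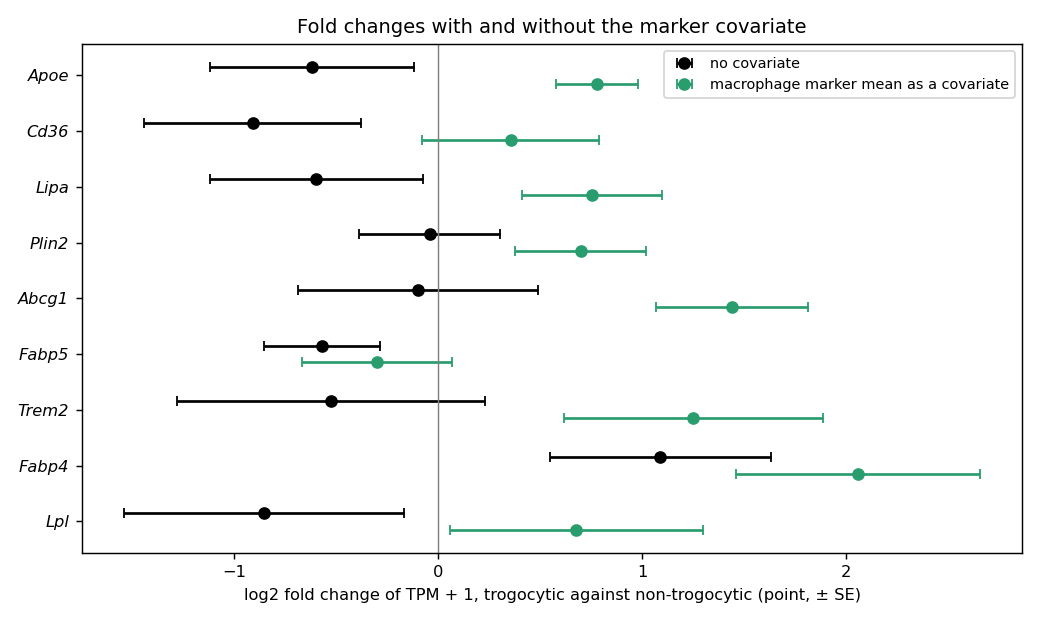
Log2 fold change of TPM + 1 with its SE (horizontal axis) for the 9 tested genes, from the fit with no covariate (black) and with the macrophage marker mean as a covariate (green). Without it all but Fabp4 lie below 0, and with it all but Fabp5 lie above 0, while none passes the test in either fit.

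Promoters from the RefSeq table that hold the core letters of PU.1 sites are shown next, also chosen after the matches were seen, with that core, GAGGAA on either strand, in capitals. PU.1 is a factor central to macrophage identity. The table held promoters of 6 of the 10 genes, 8 in all. Each line is 250 bases up to the start, 5′ to 3′, in GRCm38.p6, on the minus strand for Apoe and Lipa and the plus strand for Trem2.
Apoe, chr7:19699189-19699438: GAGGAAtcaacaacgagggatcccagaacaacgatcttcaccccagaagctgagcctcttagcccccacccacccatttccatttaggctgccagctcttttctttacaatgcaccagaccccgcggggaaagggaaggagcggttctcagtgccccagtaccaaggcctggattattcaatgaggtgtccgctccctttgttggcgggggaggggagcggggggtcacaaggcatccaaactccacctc
Lipa, chr19:34527475-34527724: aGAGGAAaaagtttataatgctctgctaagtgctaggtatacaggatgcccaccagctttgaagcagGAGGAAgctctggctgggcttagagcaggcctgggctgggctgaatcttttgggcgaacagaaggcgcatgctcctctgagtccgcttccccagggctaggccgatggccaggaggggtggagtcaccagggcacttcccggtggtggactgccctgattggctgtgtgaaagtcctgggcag
Trem2, chr17:48346151-48346400: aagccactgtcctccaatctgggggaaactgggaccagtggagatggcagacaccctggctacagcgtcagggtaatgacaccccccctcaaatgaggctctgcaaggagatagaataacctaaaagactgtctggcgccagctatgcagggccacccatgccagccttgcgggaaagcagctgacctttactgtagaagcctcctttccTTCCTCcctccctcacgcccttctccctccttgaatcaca
The 6 letters occurred in 4 of the 8 promoters, from Apoe (2 of its 3 starts, with the first shown), Lipa and Trem2, and in 23.3% of all 32851 windows, so a match is common. In Trem2 it lies on the opposite strand, 40 to 35 bases before the start, and Lipa holds it at 2 places. Of the other motifs searched on both strands, the E-box CACGTG occurred in Abca1 only (6.02% of all windows), the AP-1 motif TGANTCA in Trem2 only (6.75%) and the PPAR direct repeat, AGGTCA repeated after 1 free base, in none of the 8 (0.0335%). No match says only that these letters are not in this window.

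Among 7176 other tested genes with a mean of at least 5 TPM, those whose log2 level was most like the mean of the 9 standardised genes over the 8 libraries were Evi2a, Ighj1 and Laptm5 (Pearson's r = 0.983, 0.981 and 0.979). Vim, Mndal and Creg1 followed, at 0.967, 0.967 and 0.966. Each gene was read in the same 8 libraries, which differed in cell content and depth as given above, and these values are a description with no test. The genes most like Apoe were Akr1a1 (0.987) and Emp3 (0.973), those most like Trem2 were Gpr65 (0.962) and Creg1 (0.955), those most like Lpl were Cyba (0.975) and Gpr65 (0.973), and those most like Plin2 were Atp6v0d1 (0.960) and Capzb (0.957). Laptm5 encodes a lysosomal protein of blood cells, Cyba a subunit of the phagocyte oxidase and Atp6v0d1 a subunit of the proton pump that acidifies lysosomes. These are only part of the genes named and do not stand for the rest. Ighj1, the second gene most like the list, Vim, Mndal, Akr1a1, Emp3 and Capzb are not described. Laptm5 stood at 81.0 ± 57.5 and 52.1 ± 20.1 TPM (SD, n = 4 each), Cyba at 1830 ± 971 and 1130 ± 433 TPM and Creg1 at 299 ± 172 and 186 ± 88.6 TPM.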

How the data were processed

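Polyadenylated RNA of 8 co-cultures was sequenced as paired reads of 100 bases. Tools listed in the submitters' processing notes are StringTie 1.3.3, HISAT2 and DESeq 2, with the builds mm10 and GRCm38. The sources used here give neither the annotation release nor the strand setting. Per the file headers, each deposited table lists a coverage, an FPKM and a TPM per gene, computed by the authors. The deposited coverage, a signal with no scaling, was used for depth: divided by FPKM in genes with 1 transcript, it gives aligned bases. TPM was summed over rows for 12 IDs on more than 1 row. No counts were analysed here.

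Genes with at least 1 TPM in 4 or more libraries, 11433, were tested on log2(TPM + 1) with limma 3.58.1 (R 4.3.3), a mean-variance trend and Benjamini-Hochberg adjustment, two-sided, called at an adjusted p below 0.05. The test was tried on simulated data with 200 changed genes, in which each gene varied independently of the others. Genes in the real libraries rose and fell together, as given above for the list, so the rates may differ there. In the simulation the test recovered 9.39% of log2 changes of 1, 36.9% of those of 2 and 66.4% of those of 3, and 3.38% of its calls were false. A gene that was not called may therefore still differ. Correlations used exact permutation over all pairings. SciPy was 1.17.1.

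The 10 genes and the lists were chosen with earlier results of these data known. Named were the 10 genes, in each pathway list the 2 tested genes highest in TPM and the 2 with the smallest p, the 2 highest markers of each cell type and those at 0, and the genes most like the list; part of them is printed. Alternatives covered unit, pseudocount, filter, scaling, variance trend, gene identity, replicate block, covariates and libraries left out. Overlapping genes were looked for: Abcg1 alone has one, Gm25447, at 0 TPM. The remaining marker lists had 0 called: B cell (3 tested, median log2 fold change 0.22), neutrophil (4 tested, 0.44), dendritic cell (1 tested, 1.40), endothelial (1 tested, -0.64), and erythroid and platelet (4 tested, 0.18).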

Additional observations from a re-analysis of the deposited data

Results flagged for a closer look

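In 69 groups of 4 values, for the 10 genes, the list sums and the ratios, the highest or lowest library was set against the gap to its neighbour, a rule that flags about 1 group in 20 by chance, and 3 values stood apart. None was a level of 1 of the 10 genes. The summed TPM of hepatocyte markers was 354 in non-trogocytic replicate 3 and 0 in the other 3 controls. The droplet storage and lipolysis genes summed to 378 TPM in trogocytic replicate 1 and to 241 to 259 TPM in the other trogocytic libraries. The fibroblast markers summed to 0.185 TPM in trogocytic replicate 1, against 0 in the other 3, while the controls ran from 0.560 to 33.3 TPM.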

How the results depend on the processing

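No gene of the list was called under any of the 21 alternatives. The count of genes called over the whole table, 6 as reported, was 3 with FPKM and 2 with 0.01 as pseudocount. It was 1 when low values were kept, 1 when no variance trend was fitted and 0 when replicate 1 of each group was dropped (594 genes at an unadjusted p below 0.05). It ran from 0 to 3 with 1 library left out, where fewer samples are fitted. A replicate block left 0 calls, also with median-of-ratios scaling, with 654 and 647 genes at an unadjusted p below 0.05, against 525 without it; same-numbered libraries of the groups had deviations correlated at 0.235, 0.0054, 0.0623 and -0.0932, so the numbers were not taken to pair them.

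With the macrophage marker mean as a covariate, the median of the 9 fold changes went from -0.57 to 0.75 and the number below 0 from 8 to 1. The covariate differed between the groups itself, and the share of all genes below 0 was not computed for that fit. That setting reversed Apoe (0.78), Lpl (0.68), Cd36 (0.35), Lipa (0.75), Abcg1 (1.44), Plin2 (0.70) and Trem2 (1.25). Plin2 was also 0.0061 without the first replicates of both groups. With 1 library left out, the median ran from -0.93 to -0.27, the number below 0 from 6 to 8, Abcg1 from -0.53 to 0.40 and Plin2 from -0.28 to 0.18. Of 189 values of single genes, 174 kept their direction and side of the threshold, and the cause of the other 15 was not tested. With 4 libraries a group, the 95% intervals of the 9 fold changes, given with the genes, bound what could be seen.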
